A study of Mus musculus with 27 samples.

Results

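Bone marrow-derived macrophages lacking TRAP1, a chaperone of the HSP90 family that resides in mitochondria, were compared in a medium conditioned by malignant peripheral nerve sheath tumor cells (MPNST-CM), either polarized with IL-4 (M2) or left unpolarized (Mφ). The comparison holds 6 of the 27 libraries of 3′ RNA-seq in the series, which are the 3 libraries labelled M2_CM_KO and the 3 labelled M0_CM_KO in batch 1. By the labels and the paper's methods, cells of all 6 libraries came from female C57BL/6 TRAP1 KO mice 3 to 4 months old. The low level of Xist given below goes against that sex. In these mice TRAP1 is missing from every cell type and not from macrophages alone. Bone marrow was grown in a macrophage differentiation medium with medium of L929 cells as the source of M-CSF, M2 cells received IL-4 at 10 ng/mL for 24 h and Mφ cells did not, and both were then kept in MPNST-CM for 48 h, with fresh MPNST-CM given after the initial 24 h. The sources used here do not say whether IL-4 stayed in the MPNST-CM, so the difference between M2 and Mφ was read 48 h after the cells were moved to it. Nor do they say how Mφ cells were kept during the 24 h that M2 cells spent with IL-4 in complete RPMI. IL-4 and any such difference in culture cannot be told apart. Below, IL-4 treatment stands for the whole difference between M2 and Mφ. Batch 1 holds 24 libraries in 8 groups. Its 6 libraries of TRAP1 KO in DMEM (control medium), Mφ and M2, and its 6 libraries of WT in MPNST-CM, Mφ and M2, were used for comparison, and they share no library with the 6 described here. The labels do not say whether the replicates of a group came from separate animals or cultures. The p-values rest on the spread between libraries within all 8 groups of batch 1, which share 1 fit, and that spread may be technical.

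IL-4 binds a receptor that contains IL-4Rα, and Janus kinases at this receptor phosphorylate STAT6, which enters the nucleus and activates its target genes. In mouse macrophages this response is called alternative activation, and arginase 1, the resistin-like molecule Retnla, the chitinase-like protein Chil3 and lectin receptors such as Mrc1 (CD206) and Mgl2 are its usual marks. Macrophages in tumors often carry part of this program, together with growth factors for vessels and with proteases that cut the matrix. STAT6 binds a short palindrome with TTC and GAA at its ends, whereas the hypoxia-inducible factors (HIFs) bind a core of ACGTG and interferon-regulated genes often carry paired GAAA elements bound by IRF proteins.

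Promoters of 5 genes on which the results turn are printed here, each chosen for a different response: Retnla and Tmem26 rose with IL-4 treatment, Egln3 was among the largest falls, and Rsad2 and Ifit3 responded to IL-4 in opposite directions in different media. They are RefSeq promoters of build GRCm38.p6, from 250 bases before to 50 bases after the start of transcription, whereas the deposited counts were made on build mm39. Capitals mark TTCNNNNGAA, the STAT6 form, in Retnla and Tmem26. They mark ACGTG in Egln3 and GAAANNGAAA, read on the opposite strand, in Rsad2 and Ifit3.
Retnla, chr16:48842359-48842658, plus strand: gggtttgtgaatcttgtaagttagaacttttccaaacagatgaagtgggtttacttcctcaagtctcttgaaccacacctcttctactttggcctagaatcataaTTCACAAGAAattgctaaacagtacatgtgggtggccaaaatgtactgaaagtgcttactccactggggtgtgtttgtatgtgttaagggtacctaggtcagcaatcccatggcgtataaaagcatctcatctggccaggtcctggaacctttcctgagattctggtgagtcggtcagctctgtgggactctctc
Tmem26, chr10:68723496-68723795, plus strand: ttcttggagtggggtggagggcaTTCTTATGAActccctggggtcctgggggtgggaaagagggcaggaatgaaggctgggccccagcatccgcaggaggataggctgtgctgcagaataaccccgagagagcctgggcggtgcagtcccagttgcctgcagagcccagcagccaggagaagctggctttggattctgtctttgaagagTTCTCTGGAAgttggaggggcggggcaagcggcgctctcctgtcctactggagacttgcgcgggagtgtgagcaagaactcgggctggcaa
Egln3, chr12:54203825-54204124, minus strand: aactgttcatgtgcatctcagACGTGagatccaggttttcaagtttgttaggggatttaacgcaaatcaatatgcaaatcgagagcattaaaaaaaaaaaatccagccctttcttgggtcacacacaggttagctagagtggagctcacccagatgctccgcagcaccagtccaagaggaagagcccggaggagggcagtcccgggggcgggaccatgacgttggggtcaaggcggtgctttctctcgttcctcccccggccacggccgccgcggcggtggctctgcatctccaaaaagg
Rsad2, chr12:26456403-26456702, minus strand: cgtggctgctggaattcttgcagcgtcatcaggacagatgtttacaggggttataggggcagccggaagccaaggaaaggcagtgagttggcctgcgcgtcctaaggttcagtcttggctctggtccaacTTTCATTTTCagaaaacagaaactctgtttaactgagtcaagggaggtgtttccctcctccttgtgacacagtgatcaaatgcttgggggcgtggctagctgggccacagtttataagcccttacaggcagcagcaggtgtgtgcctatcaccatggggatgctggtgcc
Ifit3, chr19:34583279-34583578, plus strand: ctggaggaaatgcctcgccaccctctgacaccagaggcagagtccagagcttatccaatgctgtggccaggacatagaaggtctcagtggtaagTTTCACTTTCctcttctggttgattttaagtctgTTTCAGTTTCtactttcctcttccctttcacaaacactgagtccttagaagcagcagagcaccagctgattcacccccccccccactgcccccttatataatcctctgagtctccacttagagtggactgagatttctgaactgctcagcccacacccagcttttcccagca
The match begins 145 bases before the start of Retnla and 227 and 41 bases before that of Tmem26. It begins 229 bases before the start of Egln3, 120 before that of Rsad2, and 156 and 122 before that of Ifit3. Both strands were searched for each motif, and a match was counted also where it overlapped another one. TTCNNNNGAA was in 6.95% of all 32851 promoters of this length, ACGTG in 19.6% and GAAANNGAAA in 3.44%. A match of these letters is a description of the sequence and does not show that a factor was bound.

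Levels are given as CPM, counts scaled to a common library size with TMM factors, and an adjusted p is one corrected over all genes tested by the Benjamini-Hochberg method. The targeted gene was read first. Trap1 had 0 counts in all 6 libraries, against 13.8 ± 2.75 CPM (SD, n = 3) in WT Mφ and 10.5 ± 0.0672 CPM in WT M2 in the same medium. The 6 libraries held 7688771 to 9089792 counts on genes, and fewer than 3 counts of a transcript in 1 library were read as below detection. Xist, the RNA that coats the inactive X chromosome, was at 0.127 to 1.14 CPM in the 6 libraries, although the mice are labelled female, and at a mean of 337 ± 61.5 CPM (SD, n = 3) in WT Mφ and 348 ± 136 CPM in WT M2 in MPNST-CM. This low level is shared by M2 and Mφ of TRAP1 KO, and it therefore bears on the comparisons with WT alone, in which it goes with the genotype. The library Mφ replicate 1 stood apart, with 107 genes at least 2-fold above both other Mφ libraries (2 CPM added to each value), whereas no other of the 6 libraries had more than 3 such genes. Counts below therefore come with their value without it where that moved them by more than 1.5 times. A further library, labelled M2_CM_KO replicate 4, belongs to batch 2 and is not part of this comparison. It had 0 counts of Trap1, and by its total counts it was at 293 CPM of Xist, 4252 of Retnla and 46.1 of Arg1, the last 2 against 211 to 229.9 and 216 to 233 in the 3 M2 libraries of batch 1. On the same scale Chil3 was at 474 CPM against 108 to 121, and Mgl2 at 157 against 271 to 275. Rsad2 was at 110 CPM against 525 to 547, and Ifit3 at 29.2 against 204 to 210.

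The macrophage identity was shared by both groups. The 11 macrophage markers, among them Adgre1, Csf1r and Lyz2, summed to 11825 to 13529 CPM in Mφ and to 11664 to 12487 CPM in M2. In bulk RNA, fewer cells of a type and less RNA per cell cannot be told apart. Of these markers Csf1r, the receptor for M-CSF, and Aif1 fell. Of the markers of other cell types, Cd3e, Cd79a, Pdgfra, Sox10 and Ngfr had 0 counts in all 6 libraries. Few of the rest had enough counts to be tested: 5 neutrophil, 5 mast cell, 3 Schwann cell, 1 B cell, 1 fibroblast, 1 platelet and 0 erythroid markers. None of those tested passed. The 7 mast cell or basophil markers summed to 0.365 to 0.892 CPM in Mφ and to 1.45 to 2.03 CPM in M2. Both eosinophil markers tested, Siglecf and Ccr3, rose, and the 4 eosinophil markers summed to 2.07 to 4.71 CPM in Mφ and to 19.6 to 21.9 CPM in M2, while Epx, the peroxidase that defines eosinophils, had 0 counts. The 9 dendritic cell markers summed to 13.4 to 15.2 CPM in Mφ and to 20.4 to 21.7 CPM in M2, with Ccr7 as the 1 member that rose and Ccl17 at 0 counts. The 7 T or NK cell markers summed to 169 to 245 CPM in Mφ and to 345 to 395 CPM in M2, and Il7r, which stood in this list, rose, from 245, 168 and 173 CPM to 370.4, 345 and 394 CPM, in cells without Cd3e. The part of such cells in the results was not tested beyond these values.

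M2, treated with IL-4, and Mφ of TRAP1 KO differed clearly 48 h after the change to MPNST-CM. Of 13614 genes tested with edgeR's quasi-likelihood test, 913 (6.71%) were higher in M2 and 609 (4.47%) were lower at an adjusted p of 0.05. Counts of list members below are to be set beside these shares. A log2 fold change of at least 1 in size was reached by 326 of the genes that rose and by 122 of those that fell, and the median over all genes was 0.0082. In TRAP1 KO in control medium, the same IL-4 treatment raised 2122 genes (15.6%) and lowered 1761 (12.9%). In WT in MPNST-CM, it raised 1617 (11.9%) and lowered 1775 (13%). Of the 913 genes that rose here, 589 (64.5%, or 27.8% of the 2122) also rose in TRAP1 KO in control medium, and 67 fell there. In WT in MPNST-CM 561 of them (61.4%, or 34.7% of the 1617) rose, and 112 (12.3%) fell. Of the 609 genes that fell here, 347 (57.0%) also fell in control medium and 378 (62.1%) in WT. Both other comparisons were passed in the same direction by 465 of the genes that rose (50.9%) and by 261 of those that fell (42.9%).

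Whether a gene responded differently was tested as the difference of the log2 fold changes. Between MPNST-CM and control medium, within TRAP1 KO, 746 genes (5.48%) had a higher response to IL-4 in MPNST-CM and 818 (6.01%) had a lower one. Between TRAP1 KO and WT, both in MPNST-CM, 553 (4.06%) had a higher response in TRAP1 KO and 425 (3.12%) a lower one. These calls rest on batch 1: with the 3 batch 2 libraries added, the 1522 genes that differed between M2 and Mφ became 475 without and 535 with a term for the batch. These libraries are labelled M0_DMEM_WT, M2_CM_KO, which stood apart, and M2_DMEM_KO, which enters the difference from control medium. Batch 2 was left out because the comparison was set on batch 1 libraries. A judgement that both its TRAP1 KO libraries go against their labels also entered, and it was not tested here. Of these, M2_CM_KO replicate 4 had 0 counts of Trap1 and 293 CPM of Xist, which go with its KO and female labels. No values of M2_DMEM_KO replicate 4 are given here.

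**Figure D1:**
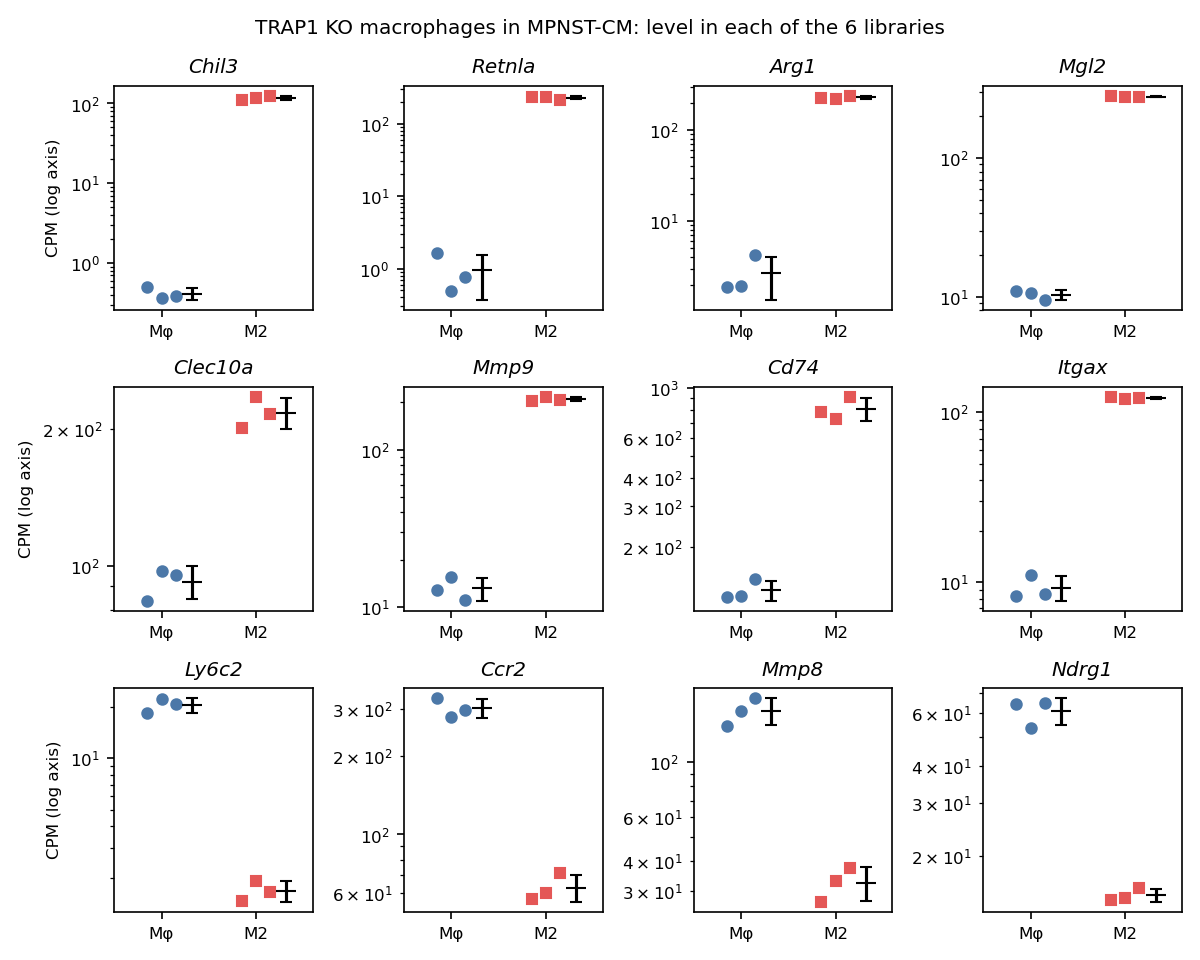
Levels of 12 genes in the 6 libraries, in CPM on a log axis, with circles for the 3 Mφ libraries, squares for the 3 M2 libraries and black marks for the mean and SD. In each of the 12 genes the groups are apart, with the first 8 higher and Ly6c2, Ccr2, Mmp8 and Ndrg1 lower in M2.

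Of the 15 largest rises named by the rule, 6 stood on the list of alternative activation, among them the largest 2. The rule admitted only genes without overlap between the M2 and Mφ libraries, so the lack of overlap in genes it named was set beforehand. Separation of this kind was common. Of the 1522 genes that differed, 1117 showed it and also reached the 10 CPM that the rule asks for. Its share among all genes tested is not given here. For list members below, a lack of overlap therefore describes the libraries and adds nothing to the test. Of 36 members tested, 23 rose, 2 fell and 11 did not pass, and their median log2 fold change was 1.62 (over all genes, 0.0082). Chil3, which encodes a secreted chitinase-like protein, was at 0.499, 0.365 and 0.382 CPM in the Mφ libraries and at 109.9, 117 and 123 CPM in the M2 libraries. All M2 libraries lay far above all Mφ libraries, with a log2 fold change of 8.08 (SE 0.28, edgeR adjusted p = 2.73e-16). Retnla, a secreted product that restrains type 2 inflammation, was at 1.62, 0.487 and 0.764 CPM in Mφ and at 231, 236 and 214 CPM in M2. The groups did not overlap, and the log2 fold change was 7.87 (SE 0.24, adjusted p = 1.03e-16). Arg1, the cytosolic arginase that turns arginine into ornithine and urea, was at 1.87, 1.95 and 4.203 CPM in Mφ and at 227, 222 and 236 CPM in M2. Its log2 fold change was 6.41 (SE 0.27, adjusted p = 3.92e-13), and the 3 M2 libraries lay close together.

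Other members of the list rose as well. Mgl2, a lectin receptor for galactose-type sugars that shares sequence with Clec10a, was at 10.99, 10.6 and 9.42 CPM in Mφ and at 280.1, 278 and 276 CPM in M2, a log2 fold change of 4.75 (SE 0.16, adjusted p = 2.02e-17). Clec10a itself was at 83.5, 97.5 and 95.4 CPM in Mφ and at 201, 235 and 215 CPM in M2, and the reads of both genes may be split. Tmem26, a membrane protein with matches to the STAT6 form in its promoter, was at 1.37, 1.09 and 1.401 CPM and at 23.1, 27.2 and 26.7 CPM, a log2 fold change of 4.30 (SE 0.26, adjusted p = 3.72e-12). None of these 3 genes overlapped between groups. Flt1, a receptor for VEGF that also stands on the angiogenic list, was at 0.374, 0.122 and 0 CPM and at 9.13, 8.6996 and 11.4 CPM. Slc7a2, a cationic amino acid transporter that brings in arginine, was at 0.2497, 0.365 and 0.637 CPM and at 7.804, 11.5 and 10.5 CPM. Their log2 fold changes were 5.74 (SE 0.31, adjusted p = 1.62e-13) and 4.54 (SE 0.35, adjusted p = 2.97e-10), both from Mφ levels of few counts. Egr2, a transcription factor induced by IL-4, rose from 3.87, 4.5002 and 4.84 CPM to 24.5, 27.5 and 24.4 CPM.

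The mannose receptor and the components of the signal itself moved less or in the other direction. Mrc1, which encodes CD206, was at 2609, 2542 and 2659 CPM in Mφ and at 3485, 3769 and 3289 CPM in M2, a log2 fold change of 0.43 (SE 0.07203, adjusted p = 1.15e-04). Il4ra, the receptor subunit that binds IL-4, was 1 of the 2 members that fell, from 296, 309 and 285 CPM to 163, 176 and 150.2 CPM, a log2 fold change of -0.86 (SE 0.11, adjusted p = 2.18e-06). The other was Tgm2, a transglutaminase that cross-links proteins, at 226, 251 and 233 CPM in Mφ and 159, 165 and 161 CPM in M2. Stat6 was at 56.2, 51.4 and 43.4 CPM and at 37.3, 42.03 and 36.4 CPM and did not pass (log2 fold change -0.38, SE 0.14, adjusted p = 0.0801). Socs1, a feedback inhibitor of cytokine signaling, rose from 0.874, 1.09 and 1.78 CPM to 3.44, 3.84 and 3.04 CPM, and did not pass without Mφ replicate 1 or 2 or M2 replicate 2 (adjusted p = 0.0527 to 0.0663). Ccl17, a chemokine that marks IL-4 treated macrophages, had 0 counts in all 6 libraries, whereas M2 of TRAP1 KO in control medium held 1.22 ± 0.373 CPM (SD, n = 3).

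The same list was then read in the other conditions. In TRAP1 KO in control medium 27 of the 36 members rose and 6 fell, and in WT in MPNST-CM 30 rose and 2 fell. With the batch 2 libraries added, 18 members rose and none fell here without a batch term, and 14 and none with one. The test of the difference gave 14 members with a lower and 1 with a higher response in TRAP1 KO than in WT, and 9 lower and 6 higher in MPNST-CM than in control medium. With batch 2 added, the 14 became 4 without and 5 with a batch term, the 9 became 2 and 1, and the 6 became 3 and 4, while without Mφ replicate 1 the 1 became 2. Arg1 was among the largest differences in both: its M2 level was 632 ± 43.8 CPM (SD, n = 3) in WT in MPNST-CM and 4.89 ± 0.704 CPM in TRAP1 KO in control medium. The log2 fold change in TRAP1 KO was lower than in WT by 3.27 (SE 0.51, adjusted p = 2.14e-04), and higher than in control medium by 4.07 (SE 0.67, adjusted p = 2.35e-04). In Mφ, Arg1 was at 2.67 ± 1.32 CPM here, 0.754 ± 0.247 CPM in WT and 0.961 ± 0.982 CPM in control medium. Its differences therefore rest in part on Mφ levels of few counts. Mgl2 reached 647 ± 31.1 CPM in WT M2, and its response differed between genotypes by -4.18 (SE 0.27, adjusted p = 5.31e-11). A difference of responses includes the Mφ levels, so it does not measure the difference of the M2 levels alone. Retnla went the other way with the medium, at 1896 ± 161 CPM in M2 in control medium, and its response in MPNST-CM differed from that by -2.41 (SE 0.49, adjusted p = 0.00147, and 0.0537 without Mφ replicate 1). Clec10a rose here (log2 fold change 1.23), fell in control medium (-2.02) and rose in WT (3.28). Of the 32 list members with a RefSeq promoter, 6 (18.8%) held TTCNNNNGAA, against 6.76% of the genes tested that had one. They were Ccl17, Clec7a, Il1rn, Pdcd1lg2, Retnla and Tmem26. The same letters were in 8.13% of the promoters of all genes that rose and in 9 of 39 interferon-stimulated genes (23.1%), a larger share than in the IL-4 list.

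**Figure D2:**
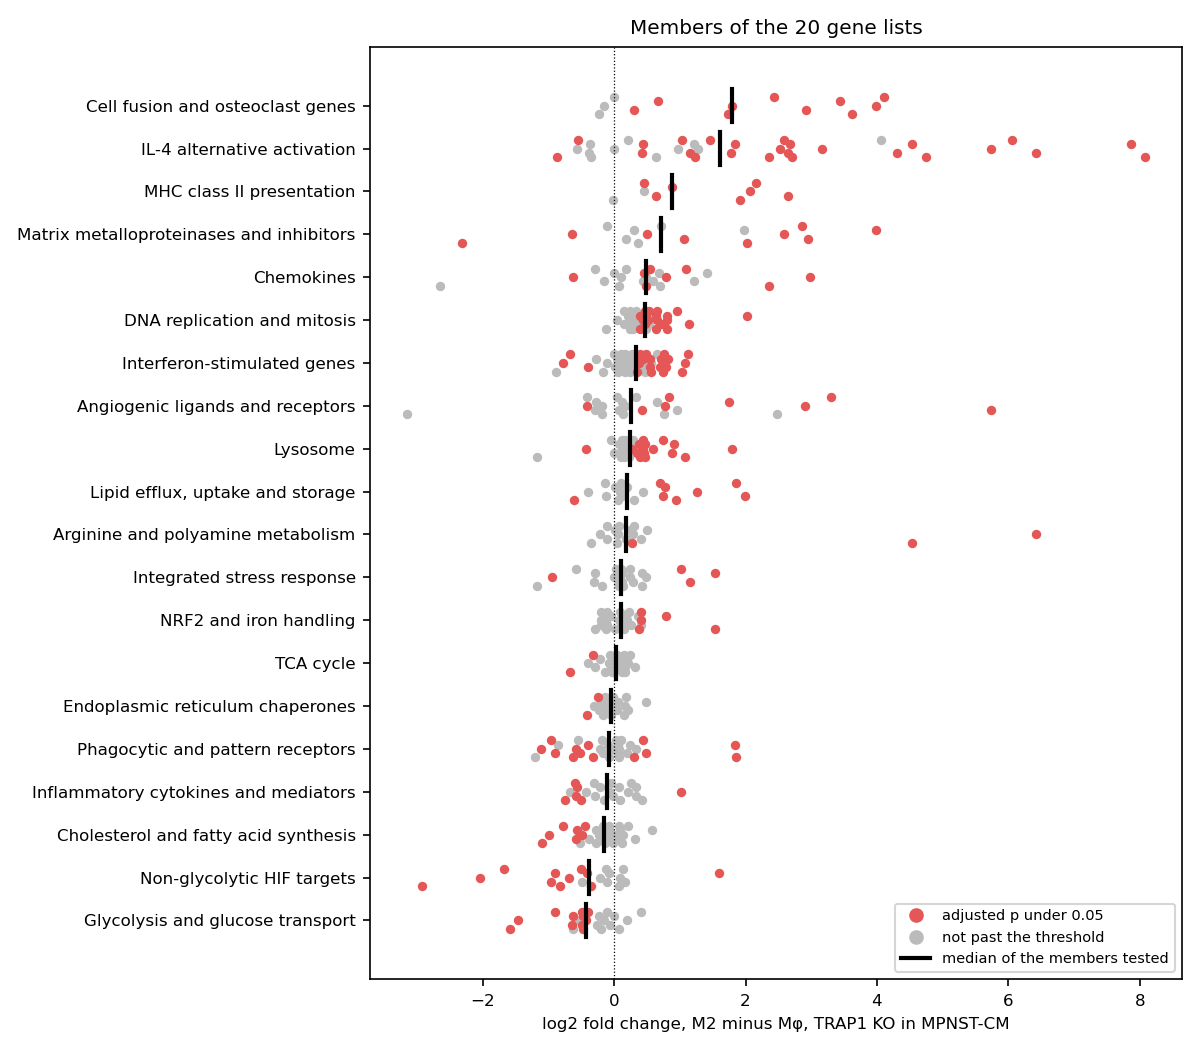
Log2 fold change of M2 against Mφ in TRAP1 KO in MPNST-CM for each member of 20 gene lists, ordered by their medians (black bars), with red points for members at an adjusted p under 0.05 and grey points for the rest. The medians run from -0.42 for glycolysis to 1.80 for cell fusion genes.

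Of the other largest rises, Rnase2a stands on the IL-4 list too, and 9 of the 15 do not. Rnase2a, a ribonuclease of the eosinophil-associated family whose copies share sequence, was at 0.374, 0.122 and 0.255 CPM in Mφ and 16.8, 16.6 and 19.2 CPM in M2. Cd200r3, a receptor of the CD200 receptor family, was at 0.2497, 0.487 and 0.509 CPM and 13.6, 11.2 and 9.62 CPM. Lrrc32, which holds latent TGF-β at the cell surface, was at 0.749, 0.243 and 0.509 CPM and 10.8, 10.3 and 10.5 CPM. Each of the 3 genes was under 1 CPM in every Mφ library, and the rule that named them required no overlap between the groups. Itgax, the integrin CD11c of dendritic cells and tissue macrophages, was at 8.24, 11.1 and 8.53 CPM and 123, 120.3 and 121 CPM, a log2 fold change of 3.71 (SE 0.10, adjusted p = 1.49e-19). Pmepa1, an inhibitor of TGF-β signaling, was at 1.37, 0.973 and 0.509 CPM and 9.52, 9.94 and 13.4 CPM, a log2 fold change of 3.499 (SE 0.37, adjusted p = 1.25e-07). Both rose, without overlap as the rule required. The rule also named Eef1a2, an elongation factor of neurons and muscle, at 10.4 ± 3.22 CPM (SD, n = 3) in M2, and Ptprn, a protein of secretory granules, at 17.2 ± 2.34 CPM, with 0.415 ± 0.144 and 1.16 ± 0.684 CPM in Mφ. Msx3, a homeobox gene, held 0, 2 and 0 counts in the Mφ libraries and 111, 123 and 95 counts in the M2 libraries.

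Of the 15 largest falls, 3 stood on one of the lists and 12 on none. Ly6c2, whose product Ly6C marks inflammatory monocytes, was at 18.4, 22.3 and 20.6 CPM in the Mφ libraries and at 1.45, 1.92 and 1.65 CPM in the M2 libraries, a log2 fold change of -3.59 (SE 0.20, adjusted p = 4.42e-13). Ccr2, the receptor for the chemokine Ccl2 by which monocytes leave the marrow, was at 331, 279 and 299 CPM and at 57.01, 59.8 and 71.000 CPM, a log2 fold change of -2.28 (SE 0.13, adjusted p = 3.13e-13). Every M2 library lay below every Mφ library in both genes, which the rule required. Plac8, expressed in monocytes and granulocytes, was at 18.97, 19.5 and 18.8 CPM in Mφ and 1.72, 1.02 and 1.52 CPM in M2, a log2 fold change of -3.75 (SE 0.38, adjusted p = 4.88e-08). F13a1, the coagulation factor XIII subunit of monocytes and macrophages, was at 42.3, 50.8 and 56.5 CPM and 4.76, 3.28 and 4.56 CPM, a log2 fold change of -3.58 (SE 0.15, adjusted p = 7.67e-16). The receptors for formylated bacterial peptides fell too: Fpr1 was at 9.86, 12.4 and 11.5 CPM and 1.32, 2.03 and 2.53 CPM, and its close relative Fpr2 at 32.1, 33.6 and 33.8 CPM and 6.75, 6.101 and 6.71 CPM. Slco2b1, a transporter of organic anions, had the largest fall of all that met the rule, from 36.2, 39.04 and 31.3 CPM to 2.51, 2.03 and 1.898 CPM (log2 fold change -4.04, SE 0.19, adjusted p = 1.19e-14). The 12 neutrophil markers summed to 11.98 to 12.7 CPM in Mφ and to 8.47 to 9.998 CPM in M2, and none of the 5 tested passed. The rule also named Cbr2, a carbonyl reductase (log2 fold change -2.39), P2ry13, a receptor for ADP (-1.99), Tox2, an HMG-box factor (-2.00), and Lix1 (-2.62).

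Most genes of cell fusion, and part of those that act on matrix, rose in M2. Of 13 cell fusion and osteoclast genes tested, 10 rose and none fell, and the median log2 fold change was 1.80. In TRAP1 KO in control medium 11 rose and 1 fell, and with batch 2 added 8 rose here without and 7 with a batch term. Dcstamp, a membrane protein required for cell fusion, was at 2.62, 3.65 and 3.69 CPM in Mφ and at 41.5, 42.5 and 38.5 CPM in M2, a log2 fold change of 3.61 (SE 0.13, adjusted p = 2.14e-17). Its relative Ocstamp was at 0, 0.243 and 0.509 CPM and 5.82, 2.71 and 5.32 CPM. Atp6v0d2, a subunit of the proton pump, was at 34.3, 40.02 and 42.3 CPM and 293, 308 and 281 CPM, a log2 fold change of 2.92 (SE 0.0831, adjusted p = 3.32e-19). All M2 libraries exceeded all Mφ libraries in these genes. The response of Dcstamp differed by 0.09 from that in control medium (adjusted p = 0.845) and by -0.18 from that of WT (adjusted p = 0.729), with standard errors of 0.16 and 0.17. The rise of Ocstamp in TRAP1 KO fell short of that in WT by 3.47 (SE 0.98, adjusted p = 0.0306), and did not pass without replicate 2 or 3 of Mφ of either genotype (adjusted p = 0.0506 to 0.477).

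Of 15 matrix metalloproteinases and inhibitors, 7 rose and 2 fell, with a median log2 fold change of 0.71. Mmp9, which cleaves gelatin and basement membrane collagen, was at 12.9, 15.6 and 11.1 CPM in Mφ and at 204, 216 and 208 CPM in M2, a log2 fold change of 3.99 (SE 0.13, adjusted p = 3.49e-18). Mmp12, the macrophage elastase, was at 181, 236 and 242 CPM and 1279.96, 1379.6 and 1296 CPM, a log2 fold change of 2.59 (SE 0.11, adjusted p = 1.93e-15). Timp1, an inhibitor of these enzymes, was at 3.87, 3.28 and 5.09 CPM and 33.1, 32.9 and 28.7 CPM. None of the 3 overlapped between the groups. Mmp8, the collagenase best known from neutrophils, fell from 141, 162 and 181 CPM to 27.1, 32.99 and 37.3 CPM (log2 fold change -2.31, SE 0.11, adjusted p = 1.08e-14). In control medium Mmp8 rose with IL-4 treatment instead, from 25.6 ± 1.55 to 85.7 ± 4.602 CPM (SD, n = 3), and the difference of the responses was -4.05 (SE 0.16, adjusted p = 2.65e-16). Mmp9 rose in WT by a log2 fold change of 5.47, and the response in TRAP1 KO was lower than that by 1.49 (SE 0.22, adjusted p = 3.35e-05).

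Most genes of antigen presentation, and part of those of lysosomes and lipid uptake, were higher in M2. Of 9 genes of MHC class II presentation tested, 7 rose and none fell, with a median log2 fold change of 0.87. Cd74, the invariant chain, was at 119.96, 121 and 143 CPM in Mφ and at 779, 729.5 and 907 CPM in M2, a log2 fold change of 2.65 (SE 0.11, adjusted p = 8.49e-16). H2-Ab1, a chain of the class II molecule itself, was at 54.8, 50.1 and 56.8 CPM and 254, 224 and 246 CPM. Ciita, the master regulator of these genes, was at 3.74, 2.55 and 3.06 CPM and 4.63, 3.502 and 4.81 CPM and did not pass (log2 fold change 0.46, adjusted p = 0.291). In both other comparisons 8 of the 9 rose, and here 5 rose in both fits with batch 2 added. The response was lower than in WT for 7 of the 9, by 0.98 for Cd74 (SE 0.15, adjusted p = 5.35e-05), and with batch 2 added for none.

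Of 32 lysosomal genes 15 rose and 1 fell, with a median log2 fold change of 0.25. The 15 became 7 without and 4 with a batch term once batch 2 was added. Ctsk, a cathepsin that degrades collagen, was at 12.9, 13.1 and 9.93 CPM in Mφ and 40.5, 47.1 and 37.3 CPM in M2. Gpnmb, a glycoprotein of lysosomes in lipid-laden macrophages, was at 6548, 7163 and 7010.5 CPM and 14915, 13342 and 15348 CPM, a log2 fold change of 1.07 (SE 0.0834, adjusted p = 2.79e-10). The member that fell was Ctsc, a dipeptidyl peptidase, from 759, 888 and 976 CPM to 624, 699 and 616 CPM, and it did not pass without Mφ replicate 3 (adjusted p = 0.0693). Of 19 genes of lipid efflux, uptake and storage, 7 rose and 1 fell, and with batch 2 added the 7 became 3 without and 2 with a batch term. Lpl, the lipoprotein lipase, was at 681, 779 and 814 CPM and 2969, 3169 and 2911 CPM, a log2 fold change of 1.99 (SE 0.0794, adjusted p = 2.73e-16). Its response exceeded that in control medium by 0.93 (SE 0.11, adjusted p = 4.98e-07) and that of WT by 0.92 (SE 0.11, adjusted p = 1.30e-06). Cd36, a scavenger receptor for oxidized lipoproteins and fatty acids, was at 295, 338 and 362 CPM and 1193, 1177 and 1216 CPM. Apoe, the apolipoprotein that carries cholesterol out of macrophages, was the member that fell, from 653, 637 and 577 CPM to 403, 404 and 409 CPM. Beside the 4.47% of all genes that fell, nothing is read from the count of 1 in the lysosomal or the lipid list.

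Part of the genes of glycolysis fell in M2 of TRAP1 KO in MPNST-CM. Of 23 genes of glycolysis and glucose transport, 11 were lower in M2 and none was higher, with a median log2 fold change of -0.42. Pkm, pyruvate kinase at the last step of the pathway, was at 1019, 1001 and 888 CPM in Mφ and at 714, 649.6 and 698 CPM in M2, a log2 fold change of -0.496 (SE 0.0862, adjusted p = 1.90e-04). Aldoa, the main aldolase, was at 839.7, 775 and 754 CPM and 576, 536 and 592 CPM, a log2 fold change of -0.47 (SE 0.0733, adjusted p = 4.13e-05). Aldoc, its isoform best known from brain, was at 60.04, 65.9 and 62.8 CPM and 20.9, 18.6 and 23.7 CPM, a log2 fold change of -1.58 (SE 0.11, adjusted p = 6.30e-11). The M2 libraries lay below the Mφ libraries throughout in these 3 genes. Hk2, the inducible hexokinase, was at 71.03, 62.4 and 64.4 CPM and 49.5, 47.7 and 50.6 CPM (log2 fold change -0.42, SE 0.10, adjusted p = 0.00684). Slc2a1, the glucose transporter GLUT1, was at 79.6, 90.2 and 97.3 CPM and 77.9, 72.99 and 72.6 CPM and did not pass (log2 fold change -0.26, adjusted p = 0.132). With batch 2 added, 7 of the 23 fell in both fits. Gapdh and Eno1 have near-identical copies in the genome, and their values of a few CPM are therefore uncertain.

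In control medium more of these genes rose than fell. In TRAP1 KO in control medium 11 of the same 23 genes rose with IL-4 treatment, 3 fell and 9 did not pass, and in WT in MPNST-CM 2 rose and 6 fell. The response was lower in MPNST-CM than in control medium for 12 members and higher for none, and lower in TRAP1 KO than in WT for 4. With batch 2 added, the 12 became 10 in both fits, and the 4 became 1 without and 2 with a batch term. For Slc2a1, which IL-4 treatment raised from 41.9 ± 4.44 to 119 ± 2.83 CPM (SD, n = 3) in control medium, the difference of the responses was -1.77 (SE 0.15, adjusted p = 1.75e-09). For Pkm, it was -1.03 (SE 0.12, adjusted p = 6.19e-07). Aldoc fell in control medium too (log2 fold change -1.76), and its difference of 0.18 did not pass (SE 0.16, adjusted p = 0.594). Enzymes of the TCA cycle differed little: 2 of 24 fell and none rose, and leaving out 1 library was enough to lose 1 or both, with none left without Mφ replicate 3, M2 replicate 2 or M2 replicate 3. The 2 were Acod1, which makes itaconate, at 7.99, 7.66 and 12.6 CPM in Mφ and 6.88, 5.08 and 5.82 CPM in M2, and Idh2, a mitochondrial isocitrate dehydrogenase.

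Part of the targets of HIF outside glycolysis fell as well, with 10 of 20 lower, 1 higher and a median log2 fold change of -0.38. In both fits with batch 2 added, 5 were lower. Egln3, the oxygen sensor PHD3 and itself induced by HIF, was at 17.98, 19.9 and 21.01 CPM in Mφ and at 2.38, 3.16 and 2.15 CPM in M2, a log2 fold change of -2.92 (SE 0.29, adjusted p = 2.60e-08). Ndrg1, a gene induced by low oxygen and iron shortage, was at 64.2, 53.5 and 64.7 CPM and 14.3, 14.5 and 15.7 CPM, a log2 fold change of -2.04 (SE 0.11, adjusted p = 1.58e-13). Both met the rule, which required no overlap between the groups, and both fell in control medium (-2.01 and -1.27) and in WT (-2.22 and -1.89). Vegfa, the growth factor for vessels, was at 256, 289.8 and 317 CPM in Mφ and 217, 219 and 216 CPM in M2, a log2 fold change of -0.41 (SE 0.10, adjusted p = 0.00871), which did not pass without Mφ replicate 3 (adjusted p = 0.0750). The opposite was read in the other conditions: Vegfa rose by 0.81 in control medium and by 1.63 in WT, and the responses differed by -1.22 (SE 0.15, adjusted p = 1.52e-06) and -2.04 (SE 0.15, adjusted p = 5.18e-10). Hif1a was at 96.5, 108 and 109 CPM and 110.3, 110.2 and 108 CPM and did not pass (log2 fold change 0.07, adjusted p = 0.735). Bhlhe40, a transcriptional repressor, was the member that rose, from 6.37, 10.5 and 8.92 CPM to 24.999, 27.003 and 25.6 CPM. ACGTG was in the promoters of 14 of the 18 list members that have one (77.8%) and of 13 of 22 glycolysis genes (59.1%), against 29.2% of the genes tested. It was in 29.5% of the promoters of the genes that fell and in 25.1% of those that rose.

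**Figure D3:**
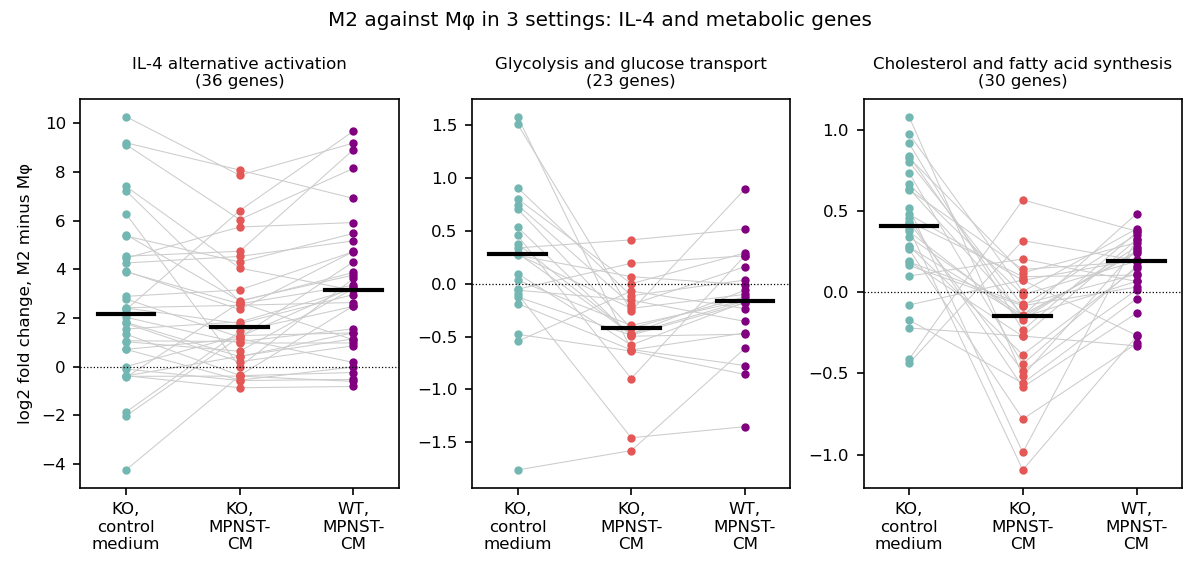
Log2 fold change of M2 against Mφ for the members of 3 lists in TRAP1 KO in control medium, TRAP1 KO in MPNST-CM and WT in MPNST-CM, with a point and a thin line for each gene and black bars for medians. The IL-4 list has its median above 0 in all 3 settings, whereas the glycolysis list has its median at -0.42 in TRAP1 KO in MPNST-CM.

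Part of the genes of lipid synthesis fell as well. Of 30 genes of cholesterol and fatty acid synthesis, 7 fell and none rose, with a median log2 fold change of -0.15. Scd1, a desaturase of fatty acids, was at 45.6, 59.2 and 54.3 CPM in Mφ and 22.8, 23.5 and 28.2 CPM in M2, a log2 fold change of -1.09 (SE 0.13, adjusted p = 1.36e-06). The M2 libraries all lay below the Mφ libraries in this gene. With batch 2 added, the 7 became 0 without and 1 with a batch term. In control medium, IL-4 treatment raised 18 of the 30 and lowered none, and 17 had a lower response in MPNST-CM. With batch 2 added, the 17 became 2 in both fits. Of 20 chaperones of the endoplasmic reticulum, 12 rose and 1 fell in control medium, 2 fell here, and 10 had a lower response here. Once batch 2 was added, the 2 became 0 and the 10 became 2 in both fits. Those that fell here were Pdia6, a disulfide isomerase (log2 fold change -0.25), and Sec61b, a subunit of the translocon (-0.41), and neither passed without Mφ replicate 2 or 3, M2 replicate 1 or M2 replicate 3. Of 26 NRF2 and iron genes, 5 rose here and 14 in control medium, and with batch 2 added the 5 became 2 without and 1 with a batch term. Slc7a11, which imports cystine, was at 16.98, 21.04 and 17.7 CPM in Mφ and 48.9, 59.9 and 53.03 CPM in M2. Of 25 genes of the integrated stress response 3 rose and 1 fell, beside shares over all genes of 6.71% and 4.47%, and nothing is read from these few calls. Of 17 genes of arginine and polyamine metabolism 3 rose (Arg1, Slc7a2 and Glul).

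Of the 20 lists, the interferon-stimulated genes had the largest share of members whose response differed from the other conditions. In M2 of TRAP1 KO in MPNST-CM, 18 of 48 were higher than in Mφ and 3 were lower, with a median log2 fold change of 0.34. In TRAP1 KO in control medium IL-4 treatment lowered 47 of the 48 (median -2.30), and in WT in MPNST-CM it lowered 46 (median -1.34). For 40 of the 48 the log2 fold change was above 0 here and below 0 in both others. The response was higher than in control medium for 46 members and higher than in WT for 43. Rsad2 (viperin), an enzyme that blocks viral replication, was at 251, 246 and 253 CPM in Mφ and at 542, 562 and 532 CPM in M2, a log2 fold change of 1.12 (SE 0.0824, adjusted p = 8.60e-11). Ifit3, which restrains viral RNA translation and shares sequence with Ifit3b, was at 113, 128 and 136 CPM and 213, 216 and 207 CPM, a log2 fold change of 0.75 (SE 0.10, adjusted p = 3.15e-06). All M2 libraries exceeded all Mφ libraries in both genes.

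The same genes were read in the other conditions. Rsad2 fell with IL-4 treatment from 1170.1 ± 60.1 to 123 ± 14.4 CPM (SD, n = 3) in TRAP1 KO in control medium, and from 444 ± 25.3 to 107 ± 4.55 CPM in WT in MPNST-CM. The responses differed by 4.38 (SE 0.12, adjusted p = 2.83e-19) and 3.17 (SE 0.12, adjusted p = 5.47e-16). Ifit2, of the same family as Ifit3, fell from 309.8 ± 7.44 to 17.9 ± 2.28 CPM in control medium and rose here from 50.4, 49.02 and 57.8 to 93.2, 86.4 and 97.3 CPM, and the difference was 4.93 (SE 0.16, adjusted p = 4.22e-18). Cmpk2, a nucleotide kinase induced beside Rsad2, had the largest difference from WT among the genes with a higher response that met the rule, 3.21 (SE 0.15, adjusted p = 3.32e-14), with 38.7, 38.4 and 38.2 CPM in Mφ and 77.8, 83.2 and 75.9 CPM in M2. Cxcl10, a chemokine induced by interferon, was at 4.49, 4.5002 and 5.86 CPM and 5.42, 6.33 and 4.05 CPM here and did not pass (adjusted p = 0.875), while it fell from 221 ± 32.2 to 6.999 ± 0.456 CPM in control medium. Members that fell were Irf7, the factor that amplifies interferon production, from 301, 323 and 315 CPM to 235, 238 and 237 CPM, Ifi27l2a (-0.77) and Ifitm1 (-0.68). GAAANNGAAA, a motif chosen after the values were seen, was in the promoters of 27 of 39 members (69.2%), against 4.04% of the genes tested. The count of 18 fell to 12 to 15 when any of the 6 libraries was left out. With the 3 batch 2 libraries added, it became 0 without and 1 with a batch term, the 46 became 8 and 9, and the 43 became 1 in both fits. The batch 2 library labelled M2_CM_KO was at 110 CPM of Rsad2 and 29.2 CPM of Ifit3 by its total counts. Both values lay below every Mφ library of batch 1, and the batch goes with this difference.

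**Figure D4:**
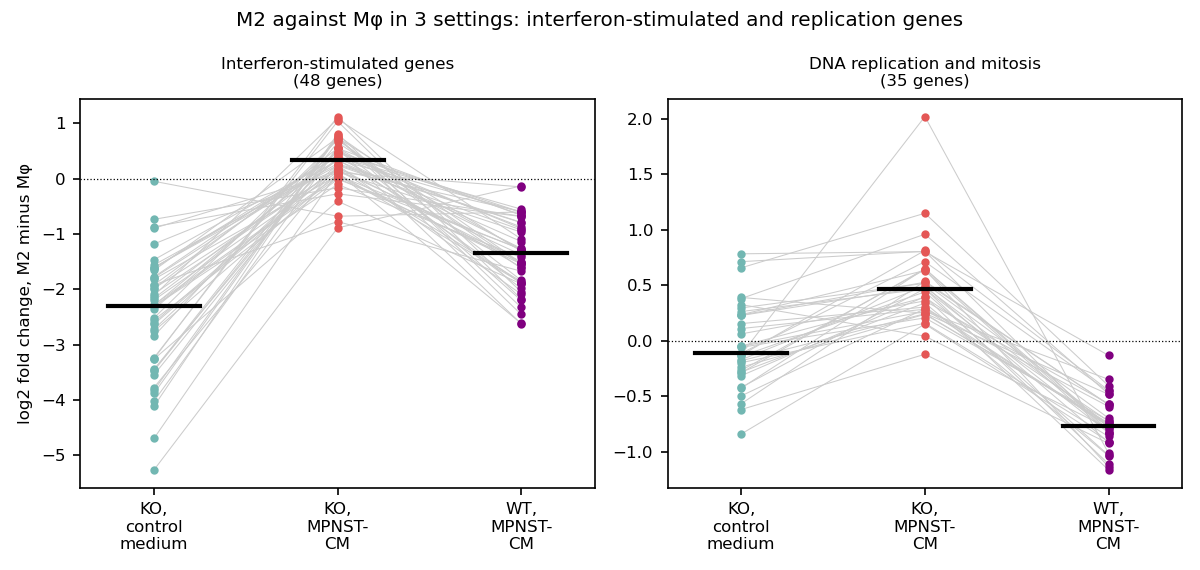
Log2 fold change of M2 against Mφ for 48 interferon-stimulated and 35 replication genes in TRAP1 KO in control medium, TRAP1 KO in MPNST-CM and WT in MPNST-CM, with a point and a thin line for each gene and black bars for medians. The interferon median is -2.30, 0.34 and -1.34 in this order, and the replication median -0.11, 0.47 and -0.77.

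More genes of DNA replication and mitosis passed the test than did not, all of them higher in M2. Of 35 tested, 19 rose and none fell, with a median log2 fold change of 0.47. Pcna, the sliding clamp of DNA polymerases, was at 35.1, 38.6 and 47.4 CPM in Mφ and 70.5, 74.6 and 65.7 CPM in M2, a log2 fold change of 0.80 (SE 0.15, adjusted p = 4.04e-04). Mcm5, a subunit of the replicative helicase, was at 10.7, 12.04 and 9.68 CPM and 14.02, 22.3 and 13.8 CPM, a log2 fold change of 0.63 (SE 0.14, adjusted p = 0.00283, and 0.0710 without M2 replicate 2). Both were without overlap. Rrm2, the regulated subunit of ribonucleotide reductase, was at 6.62, 8.88 and 11.8 CPM and 16.9, 20.1 and 15.9 CPM. Mki67, a marker of cycling cells, was at 16.2, 7.298 and 8.15 CPM and 13.6, 16.2 and 14.7 CPM and did not pass (log2 fold change 0.49, adjusted p = 0.641). In WT in MPNST-CM, 31 of the 35 fell with IL-4 treatment and none rose, and in TRAP1 KO in control medium 5 rose and 5 fell. The response was higher in TRAP1 KO than in WT for 30 members, by 1.46 for Mcm5 (SE 0.18, adjusted p = 2.92e-06). The count of 19 became 12 without Mφ replicate 2 and also without M2 replicate 3. With the batch 2 libraries added, it became 2 in both fits, and the count of 30 became 5 in both.

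More chemokines rose than fell, and more inflammatory mediators fell than rose. Of 22 chemokines 7 rose and 1 fell, beside shares over all genes of 6.71% and 4.47%, so nothing is read from the 1 that fell. With batch 2 added 1 rose and none fell in both fits. Ccl8, which draws monocytes and T cells, was at 11.5, 8.64 and 10.3 CPM in Mφ and 82.7, 74.5 and 83.1 CPM in M2, a log2 fold change of 2.98 (SE 0.13, adjusted p = 3.80e-15). Ccl5, a chemokine for T cells, rose from 8.11, 9.37 and 10.2 CPM to 17.1, 16.8 and 14.2 CPM, and in control medium it fell with IL-4 treatment from 76.8 ± 7.13 to 10.3 ± 1.67 CPM. The difference of the responses of Ccl5 was 3.69 (SE 0.22, adjusted p = 9.51e-13). The 1 that fell was Ppbp, a chemokine best known from platelets, at 557, 652 and 689 CPM in Mφ and 394, 446 and 391 CPM in M2, and it did not pass without Mφ replicate 2 or 3 or M2 replicate 1 or 3 (adjusted p = 0.0659 to 0.0821). Without Mφ replicate 1 or M2 replicate 2, 2 chemokines fell. Of 22 inflammatory mediators, 5 fell and 1 rose, and by the same shares nothing is read from the 1 that rose. The 5 became 3 without Mφ replicate 2 or without M2 replicate 1 or 2. The 1 that rose became 0 without Mφ replicate 1 or 2 or M2 replicate 2, and with batch 2 added none rose, and 0 without and 1 with a batch term fell. Il18, a cytokine that inflammasomes activate, was at 46.1, 49.3 and 46.1 CPM and 31.5, 28.7 and 33.3 CPM, a log2 fold change of -0.60 (SE 0.15, adjusted p = 0.00858, and 0.0544 without M2 replicate 2).

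Beside 6.71% of all genes that rose and 4.47% that fell, 7 of 24 angiogenic ligands and receptors rose and 1, Vegfa, fell. Without Mφ replicate 1, 2 of them fell, and with batch 2 added 4 rose without and 5 with a batch term and none fell. Igf1, a growth factor for many cell types, was at 301, 303 and 333 CPM in Mφ and 1002, 1070.5 and 1068 CPM in M2, a log2 fold change of 1.74 (SE 0.0766, adjusted p = 1.93e-15). Hbegf, a ligand of the EGF receptor, was at 0.624, 0.608 and 0.637 CPM and 7.14, 5.76 and 5.95 CPM, a log2 fold change of 3.30 (SE 0.23, adjusted p = 4.13e-11). The M2 libraries lay above the Mφ libraries throughout in both genes. Beside the same shares, 5 of 31 phagocytic and pattern receptors rose and 8 fell, and with batch 2 added 3 rose and 3 fell in both fits. Clec7a (dectin-1), the receptor for fungal glucans, was at 38.8, 32.6 and 35.5 CPM in Mφ and 126, 129 and 129 CPM in M2. Clec4e (mincle), a receptor for glycolipids of mycobacteria, was at 424, 475 and 512 CPM and 242, 253 and 230.2 CPM, a log2 fold change of -0.96 (SE 0.10, adjusted p = 1.52e-07). C1qa, a chain of the complement component C1q whose genes share sequence, was at 191, 209.6 and 201 CPM and 124, 134 and 131 CPM, and Stab1, a clearance receptor, at 35.8, 51.2 and 36.6 CPM and 17.99, 20.6 and 18.4 CPM. Clec7a was higher in every M2 library, and the other 3 were lower in every M2 library.

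Further genes named by the rule completed the tests of the difference. With the medium, Fn1, the matrix protein fibronectin and a member of the IL-4 list, had a lower response here: it was at 1.62, 0.487 and 3.57 CPM in Mφ and 10.98, 12.9 and 12.4 CPM in M2, and in control medium at 2.66 ± 0.381 and 404 ± 1.51 CPM (SD, n = 3), with a difference of -4.55 (SE 0.48, adjusted p = 6.57e-07). Bex1, a gene best known from neurons, was at 0.2497, 0.243 and 0.127 CPM and 0.529, 0.565 and 0.886 CPM here and rose in control medium from 0.29997 ± 0.0651 to 26.8 ± 3.504 CPM, a difference of -4.81 (SE 1.05, adjusted p = 0.00219). The rule also named Galnt9, a glycosyltransferase (-3.24), Ifit1bl1, of the Ifit family (5.16), and Iigp1, an interferon-inducible GTPase (4.81). Tlr5, the receptor for bacterial flagellin, was at 14.7, 9.0004 and 11.97 CPM and 6.35, 7.34 and 9.37 CPM here and at 0.914 ± 0.6603 and 0 ± 0 CPM in control medium, where M2 had 0 counts, so that its fitted difference of 5.24 (adjusted p = 0.02499) is no measure of size, and it did not pass when Mφ replicate 2 or any M2 library of control medium was left out (adjusted p = 0.0592 to 0.0794). Against WT, the rule named Tuba8, an α-tubulin, at 0.999, 0.851 and 1.53 CPM and 1.85, 1.69 and 2.02 CPM here and at 0.986 ± 0.317 and 21.02 ± 1.67 CPM in WT, a difference of -3.69 (SE 0.49, adjusted p = 7.61e-06). It also named Gm30605, a predicted gene, with a difference of -4.35.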

How the data were processed

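3′ RNA-seq (QuantSeq FWD, which keeps strand) was read from macrophages of 8 groups. The authors trimmed reads with Trimmomatic, mapped them with HISAT2, filtered them with SAMtools and counted them by gene with featureCounts. The deposited values are raw counts per gene and library, not normalized, for 50559 genes. The labels give build mm39, the methods text an older one. Versions are not given in the sources used here, and 5 columns of the table fit no labelled library and were left out. Since reads come from the 3′ end of transcripts, levels were not compared between genes.

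The 24 batch 1 libraries entered 1 edgeR 4.0.16 fit (limma 3.58.1, R 4.3.3) by group, with TMM scaling, filterByExpr, a robust quasi-likelihood test and Benjamini-Hochberg adjustment at 0.05 over 13614 genes. CPM are counts scaled to a common library size with TMM factors, and the authors' own DESeq normalization was not used. The script was tested on simulated data.

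The members and the 20 lists were chosen with earlier results of these data known. Named genes were Trap1, list members, and the 15 largest rises and falls and 5 largest differences in each direction that passed, had a mean of 10 CPM or more and, for M2 against Mφ, did not overlap. Some genes that met this rule are not reported here. Xist, the promoters shown and their motif were chosen after values were seen. DESeq2 1.42.0, other size factors, no filter, a replicate block, the compared groups alone, a fold change limit, all 27 libraries and leaving out each library were tried.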

Additional observations from a re-analysis of the deposited data

Results flagged for a closer look

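The response to IL-4 of TRAP1 KO macrophages in MPNST-CM differed between groups in the tests of the difference itself, an interaction term in the edgeR fit, and each result for which that test passed is given here as a log2 difference or a count. Against control medium, 1564 genes differed. Among them were 46 of 48 interferon-stimulated genes with a higher response, beside 5.48% of all genes. A lower one was read in 12 of 23 glycolysis genes and 17 of 30 genes of cholesterol and fatty acid synthesis, beside 6.01% of all genes. With batch 2 added, the 46 became 8 without and 9 with a batch term. The 12 became 10 and the 17 became 2 in both fits. Among the largest by the naming rule were Tlr5 (5.24, from a group with 0 counts), Ifit1bl1 (5.16), Cxcl10 (5.07), Ifit2 (4.93) and Iigp1 (4.81), and Bex1 (-4.81), Fn1 (-4.55), Mmp8 (-4.05) and Galnt9 (-3.24).

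Against WT in MPNST-CM, 978 genes differed. Among them were 43 of 48 interferon-stimulated and 30 of 35 replication genes with a higher response in TRAP1 KO, beside 4.06% of all genes. A lower one was read in 7 of 9 genes of MHC class II presentation, beside 3.12% of all genes. With batch 2 added, the 43 became 1, the 30 became 5 and the 7 became 0 in both fits. The largest were Cmpk2 (3.21), Ifit3 (3.21), Ifit3b (3.17), Rsad2 (3.17) and Ifit2 (3.14), and Gm30605 (-4.35), Mgl2 (-4.18), Tuba8 (-3.69), Ocstamp (-3.47) and Arg1 (-3.27). Xist goes with the genotype in these libraries, so that TRAP1 and whatever else differs between the KO and WT cells cannot be told apart.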

How the results depend on the processing

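The 1522 genes that differed between M2 and Mφ became 475 (329 higher, 146 lower) with all 27 libraries, 535 (317 and 218) with a batch term as well, and 448 (326 and 122) at a log2 fold change of at least 1 in size. The 1564 genes of the difference from control medium became 407 (175 and 232), 485 (209 and 276) and 610 (376 and 234) in the same order, and the 978 of the difference from WT became 130 (70 and 60), 146 (68 and 78) and 430 (278 and 152). The cause was not tested. With 27 libraries, Pdia6 turned to 0.0565 (no batch term), as did, for the difference from control medium, Galnt9 (0.146) and Retnla (0.479), and Tlr5 to -3.58 and, with the batch term, to -2.23. Leaving out each library in turn gave 1075 to 1259, 1319 to 1514 and 798 to 1055 genes. DESeq2 gave 1503, 1597 and 1033, other size factors 1522, 1586 and 960, and the compared groups alone 1501, 1558 and 721. Without the filter the counts were 1450, 1525 and 1001, and the share with a higher response in TRAP1 KO than in WT moved from 56.5% to 43.1%. A replicate block gave 1807, 1841 and 1237. Same-numbered M2 and Mφ libraries correlated at -0.00345, 0.119 and -0.111 in their deviations, and not every library correlated best with its own number. Each group holds few libraries and Mφ replicate 1 stood apart, so these values cannot decide whether the numbers pair the libraries. Over all 8 groups, the 77 same-numbered pairs had a mean correlation of 0.107 (-0.214 to 0.521) and the other pairs one of -0.0451. Of 82 genes named for M2 against Mφ, 0 turned direction and 9 lost the call at least once within batch 1. No scaling moved the median of all genes by more than 0.1. Counts under 3 in a library limit what can be seen of low genes such as Ccl17.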
